A study of Homo sapiens with 9 samples.

Results

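Genes of sterol and fatty acid synthesis that are controlled by the sterol regulatory element-binding proteins (SREBPs) were followed across 9 expression arrays of H2009 cells, an established line of human lung adenocarcinoma. The 32 listed genes were taken by symbol, and 30 had a named probe set among the 23931 genes analysed. FDFT1, the squalene synthase gene, and HSD17B7, which encodes a sterol reductase, had no named probe set and are not described. A probe set whose identifier is the gene number of FDFT1 is among the deposited values, but the annotation used here does not name it, and it was not used. The measured genes were treated as a sterol arm of 17 genes, a fatty acid arm of 8 genes and 5 regulators.

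The cells carried CRISPRa, a Cas9 that no longer cuts DNA, fused to the activator domains VP64, p65 and Rta, and all groups were grown with blasticidin as the selection antibiotic. In the cells labelled sgRNA-A and in those labelled sgRNA-B, a different single guide RNA directed the activator to the microRNA cluster of the imprinted 14q32 region; control cells received the guide vector without a guide. Each of the 3 groups had 3 arrays, which the series text calls biological replicates of each cell clone. Each guide was represented by 1 clone, so a guide and its clone cannot be told apart, and every test below reflects how replicate samples of these clones vary. MicroRNAs of the region had been measured as raised by RT-qPCR by the submitters beforehand.

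SREBPs are made as precursors in the membrane of the endoplasmic reticulum. When membrane sterol is low, the escort protein SCAP carries them to the Golgi, where proteases release the part that enters the nucleus; when sterol is plentiful, INSIG proteins hold SCAP back. The SREBP encoded by SREBF2 acts mainly on sterol synthesis genes, and the main form encoded by SREBF1 acts mainly on fatty acid synthesis genes; both bind sterol regulatory elements and usually act beside the CCAAT-binding factor NF-Y. Proliferating tumour cells need both arms for new membrane, and in lung epithelium the same enzymes also serve surfactant lipid production.

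Promoters of 5 genes on which the results below turn are printed to show these elements: 2 sterol genes and 1 fatty acid gene that rose, and SREBF2 and INSIG1, which code for the factor and its brake. RefSeq sequences (GRCh38.p14) run 5′ to 3′ along the gene, from 250 bases before to 50 bases after the transcription start, and capitals mark CCAAT or the sterol element form CACNCCAC, on either strand. The positions are chr11:71448344-71448643 (- strand) for DHCR7, chr5:111512486-111512785 (- strand) for STARD4, chr17:41918973-41919272 (- strand) for ACLY, chr22:41832855-41833154 (+ strand) for SREBF2 and chr7:155297628-155297927 (+ strand) for INSIG1.
DHCR7: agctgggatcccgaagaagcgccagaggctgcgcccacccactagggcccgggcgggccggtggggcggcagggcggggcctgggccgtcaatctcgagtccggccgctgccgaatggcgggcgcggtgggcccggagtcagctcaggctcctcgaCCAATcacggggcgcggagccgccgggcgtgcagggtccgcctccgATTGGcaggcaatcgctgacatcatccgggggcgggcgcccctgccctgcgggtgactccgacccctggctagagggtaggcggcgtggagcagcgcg
STARD4: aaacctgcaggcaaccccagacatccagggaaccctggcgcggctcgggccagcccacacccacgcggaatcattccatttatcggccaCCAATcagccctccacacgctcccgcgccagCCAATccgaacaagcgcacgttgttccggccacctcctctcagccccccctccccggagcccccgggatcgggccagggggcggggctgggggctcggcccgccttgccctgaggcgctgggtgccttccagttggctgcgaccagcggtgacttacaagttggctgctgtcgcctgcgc
ACLY: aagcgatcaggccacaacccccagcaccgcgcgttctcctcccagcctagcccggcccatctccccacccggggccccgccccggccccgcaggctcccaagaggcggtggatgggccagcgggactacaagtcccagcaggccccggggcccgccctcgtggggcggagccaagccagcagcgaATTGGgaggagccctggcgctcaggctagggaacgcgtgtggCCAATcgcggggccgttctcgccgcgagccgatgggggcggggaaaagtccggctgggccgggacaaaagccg
SREBF2: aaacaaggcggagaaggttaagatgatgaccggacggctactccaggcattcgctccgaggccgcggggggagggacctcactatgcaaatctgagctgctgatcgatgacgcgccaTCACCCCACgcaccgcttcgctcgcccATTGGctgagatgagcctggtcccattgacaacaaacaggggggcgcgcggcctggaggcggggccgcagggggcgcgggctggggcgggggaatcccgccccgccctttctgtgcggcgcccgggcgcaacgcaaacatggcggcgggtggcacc
INSIG1: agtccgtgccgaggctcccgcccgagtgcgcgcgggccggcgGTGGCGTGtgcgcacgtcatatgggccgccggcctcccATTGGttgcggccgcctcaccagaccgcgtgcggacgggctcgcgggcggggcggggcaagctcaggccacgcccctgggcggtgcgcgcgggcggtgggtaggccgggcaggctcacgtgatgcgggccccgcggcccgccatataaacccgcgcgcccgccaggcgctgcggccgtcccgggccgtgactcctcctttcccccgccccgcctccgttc

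Where a gene had more than 1 promoter, one with the most CCAAT and CACNCCAC matches was printed. In its printed promoter DHCR7 has CCAAT boxes starting 94 and 48 bases before the transcription start, and STARD4 has them at 161 and 130 bases. Another DHCR7 promoter, chr11:71448994-71449293, held 0 matches of either form. CACNCCAC was found in no promoter of DHCR7, STARD4 or ACLY, the printed genes that rose. The SREBF2 promoter holds the longer form TCACNCCAC 133 bases before the start, followed by a CCAAT box on the opposite strand at 106 bases. In INSIG1 the shorter form, on the opposite strand, starts 208 bases before the start. RefSeq promoters were found for 28 of the 32 listed genes; ACAT2, SQLE, FASN and FDFT1 were not matched. Counting a gene once if any of its promoters held the letters on either strand, CCAAT was present in 14 of 16 sterol arm genes (HSD17B7 among them), 5 of 7 fatty acid arm genes and 2 of 5 regulators, against 39.7% of all 27305 genes with a promoter in the table. The sterol arm genes without it were CYP51A1 and PMVK. CACNCCAC was present in 2 of 16 (IDI1 and SC5D), 2 of 7 (ACACA and SCD) and 2 of 5 (INSIG1 and SREBF2), against 7.05% of all genes. The longer form TCACNCCAC, which is counted within it, was present only in SREBF2 among the 28 (1.39% of all genes). The E-box CACGTG was present in 2 of 16, 0 of 7 and 2 of 5, against 8.77%. These are matches of letters in a window of 300 bases.

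Array values are log2 levels made by RMA, and the words rose and fell are kept for genes with a limma p below 0.05 after adjustment over all 23931 genes. Arrays of a group correlated at 0.9970 to 0.9982 and arrays of different groups at 0.9958 to 0.9980. The third sgRNA-A array lay at 20.2 on principal component 2, away from the -12.6 to 5.63 of the other arrays. Of 102 probe sets between DLK1 and DIO3 at the targeted locus, 0 changed in limma with either guide, where 2.18% and 3.07% of all genes did. Before adjustment, 1 had p below 0.05 with sgRNA-A, as did 4 with sgRNA-B. Over all genes, 6.68% were higher and 6.74% lower at that level with sgRNA-A, and 7.42% and 7.32% with sgRNA-B. Of the 102 probe sets, 90 lay at or below 4.44, the level under which 95% of olfactory receptor genes lay. All 30 measured SREBP pathway genes lay above that silent level. The 6 epithelial markers also lay above it; of these, KRT7 fell with sgRNA-A (-0.18; not called without control replicates 1 or 2 or sgRNA-A replicate 1, adjusted p up to 0.0769 in limma). Of 4 lung markers, the factor NKX2-1 and the surfactant gene SFTPC (control mean 5.13) were above the silent level, and NAPSA and SFTPB were not. Of 15 markers of blood, endothelial, fibroblast, adipose and liver cells, 12 were at or below it, among them PTPRC, CD3E, PECAM1 and ALB. The 3 above it were CD68 (control mean 8.46), the fibroblast marker COL1A1 (6.30) and the liver marker TTR (4.89). The summed log2 level of all 15 was 66.9 to 67.7 in control, 67.2 to 67.7 with sgRNA-A and 67.0 to 67.3 with sgRNA-B. Only CD68 among the 15, a lysosomal protein used as a macrophage marker, changed in limma (0.30 for sgRNA-A, 0.23 for sgRNA-B, the latter not called without any 1 of the control or sgRNA-B replicates, adjusted p up to 0.0980); its part in the results was not tested.

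In the sterol arm, ACAT2, DHCR7 and STARD4 rose with both guides and SQLE with sgRNA-B, by 1.39-fold or less. With sgRNA-A, 3 of 17 sterol arm genes rose and 0 fell, and the other 14 were not called; over all genes, 2.18% were called in this comparison (0.957% higher and 1.22% lower), and 3.62% of the 13812 genes above the silent level. With sgRNA-B, 4 of 17 rose and 0 fell, leaving 13 uncalled, against 3.07% of all genes (1.56% higher and 1.51% lower) and 5.16% of those above the silent level. The arm's median log2 fold change came to 0.087 for sgRNA-A and 0.20 for sgRNA-B, while all genes together had medians of 0.0036 and -0.0039. Before adjustment, 7 sterol arm genes with sgRNA-A had a p below 0.05 and were higher and 1 was lower, against 6.68% and 6.74% of all genes; 13 were higher and 2 lower with sgRNA-B, against 7.42% and 7.32%. In 8 genes all sgRNA-A arrays were above all controls and in 1 below, against 8.98% and 8.78% of all genes; for sgRNA-B these were 10 and 1, against 9.67% and 10.5%. Fold changes were above 0 for 11 and 15 of the 17 genes, against 51.7% and 48.4% of all genes. Both comparisons use the same control arrays. Without sgRNA-A replicate 1 or without replicate 3, 1 sterol arm gene was still called with sgRNA-A, and without control replicate 3 the arm's median there was 0.033; with sgRNA-B the same count of 4 rose whichever array was left out, and without control replicate 2 a further gene was called lower.

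The medians of single arrays show the same order. Taking each gene's value minus its control mean, the sterol arm median was 0.028, -0.0098 and -0.013 on the control arrays, 0.094, 0.12 and 0.074 with sgRNA-A, and 0.25, 0.15 and 0.21 with sgRNA-B. Neither guide group overlapped the controls, and every sgRNA-B array lay above every sgRNA-A array. Fatty acid arm medians were 0.040, -0.028 and -0.024 in control, 0.017, 0.038 and 0.050 with sgRNA-A, and 0.10, 0.072 and 0.080 with sgRNA-B, so that sgRNA-A overlapped the controls and sgRNA-B did not. Over all genes, each array's median stayed between -0.0080 and 0.0065.

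**Figure D1:**
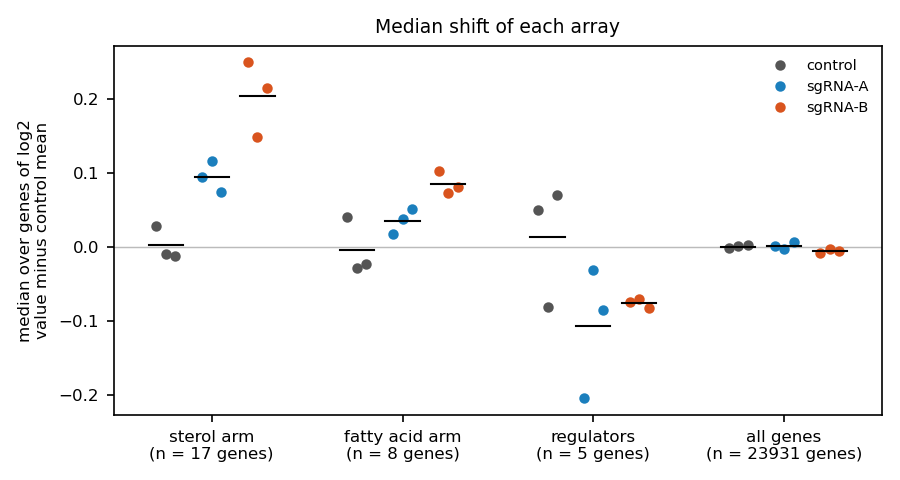
Median shift of each array from the control mean (vertical axis, log2 units) for the sterol arm, the fatty acid arm, the regulators and all genes; each point is 1 array and each black line the mean of 3 arrays. The sterol arm points with sgRNA-B, at 0.15 to 0.25, lie above those with sgRNA-A, at 0.074 to 0.12, and both lie above the control points.

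In the mevalonate part of the pathway, which turns acetyl-CoA into isoprenoid units, ACAT2 rose with both guides. ACAT2 encodes the cytosolic thiolase that joins acetyl-CoA units in the first step. Its log2 level was 9.28, 9.29 and 9.24 on the control arrays, 9.56, 9.51 and 9.59 with sgRNA-A, and 9.66, 9.55 and 9.57 with sgRNA-B. All 6 guide arrays lay above the 3 control arrays, and the guide groups overlapped each other. The log2 fold change was 0.28 with sgRNA-A (SE 0.048, 1.22-fold; adjusted p = 0.00833, limma) and 0.32 with sgRNA-B (SE 0.048, 1.25-fold; adjusted p = 0.00267, limma). Both calls held whichever single array was left out.

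FDPS, the farnesyl diphosphate synthase at the branch between sterols and other isoprenoids, did not pass the test but lay in the same direction. Levels were 6.98, 7.12 and 6.97 in control, 7.22, 7.18 and 7.38 with sgRNA-A, and 7.23, 7.40 and 7.43 with sgRNA-B, with no overlap of either guide group with the controls. Its log2 fold changes were 0.24 and 0.33 (SE 0.088 each; adjusted p = 0.242 and 0.0640, limma). HMGCS1, which makes HMG-CoA, differed by 0.04 and 0.13 with no overlap of either guide group with control, the isomerase gene IDI1 by 0.10 and 0.24, the mevalonate kinase gene MVK by -0.02 and 0.23 and the decarboxylase gene MVD by -0.02 and 0.20, all without passing. PMVK, the phosphomevalonate kinase that acts between MVK and MVD, lay on the other side of 0. Its levels were 8.51, 8.47 and 8.74 in control, 8.31, 8.39 and 8.32 with sgRNA-A, and 8.27, 8.36 and 8.38 with sgRNA-B, so that all guide arrays lay below all control arrays. The log2 fold changes of -0.23 and -0.24 did not pass (SE 0.074 each; adjusted p = 0.147 and 0.111, limma).

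SQLE encodes squalene epoxidase, a rate-limiting enzyme of the pathway. It measured 11.11, 11.04 and 11.11 in control, 11.23, 11.22 and 11.22 with sgRNA-A, and 11.32, 11.30 and 11.38 with sgRNA-B. None of the 3 groups overlapped another, and sgRNA-B was the highest. With sgRNA-B it rose by 0.25 (SE 0.037, 1.19-fold; adjusted p = 0.00236, limma), and this call held whichever array was left out. The difference of 0.14 with sgRNA-A did not pass (adjusted p = 0.0699, limma), but did when the dimmest 30% of genes were left out beforehand (adjusted p = 0.0486, limma), where 3.96% of all genes were called.

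Among the enzymes that convert lanosterol to cholesterol, DHCR7 rose with both guides. DHCR7 encodes 7-dehydrocholesterol reductase, which makes cholesterol in the last step of one branch of the pathway. Its levels were 9.85, 9.66 and 9.83 in control, 10.15, 10.03 and 10.10 with sgRNA-A, and 10.32, 10.19 and 10.27 with sgRNA-B. The 3 groups did not overlap, with sgRNA-B the highest. The log2 fold change was 0.48 with sgRNA-B (SE 0.059, 1.39-fold; adjusted p = 0.000896, limma), the largest of the 30 genes in either comparison, and 0.31 with sgRNA-A (SE 0.059, 1.24-fold; adjusted p = 0.0154, limma). The sgRNA-B call held with every array left out in turn, while the sgRNA-A call was lost without sgRNA-A replicate 1 (adjusted p = 0.0697, limma) or replicate 3 (0.0605).

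The other sterol step genes did not pass the test with either guide. SC5D, the desaturase that makes the substrate of DHCR7, showed the widest gap between the guides in the sterol arm: it measured 8.41, 8.44 and 8.21 in control, 8.45, 8.20 and 8.15 with sgRNA-A, and 8.64, 8.62 and 8.60 with sgRNA-B. Only the sgRNA-B arrays stood clear of the controls (log2 fold change 0.27, adjusted p = 0.111, limma), and with sgRNA-A the value was -0.09. NSDHL, a C4-demethylation enzyme, differed by 0.19 and 0.15, and the sgRNA-A arrays did not overlap the controls. The lanosterol synthase gene LSS differed by 0.25 and 0.11, the demethylase genes CYP51A1 by 0.02 and 0.12 and MSMO1 by 0.09 and 0.17, and the sterol reductase gene TM7SF2 by -0.03 and 0.17. EBP, a sterol isomerase, was the only one of these sterol step genes below 0 in both comparisons (-0.06 and -0.15), with overlapping groups.

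STARD4 encodes a soluble carrier that moves cholesterol between membranes. It measured 8.28, 8.29 and 8.25 in control, 8.55, 8.57 and 8.63 with sgRNA-A, and 8.54, 8.73 and 8.82 with sgRNA-B. All guide arrays lay above the control arrays, and the sgRNA-B arrays were the more spread out. It rose by 0.42 with sgRNA-B (SE 0.070, 1.34-fold; adjusted p = 0.00474, limma), a call that held whichever array was left out. The rise of 0.31 with sgRNA-A (SE 0.070; adjusted p = 0.0369, limma) was lost without any 1 of the control replicates 1, 2 and 3 (adjusted p = 0.113, 0.0697 and 0.101), the sgRNA-A replicates 1, 2 and 3 (0.0830, 0.0832 and 0.131) or sgRNA-B replicate 2 (0.0527).

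**Figure D2:**
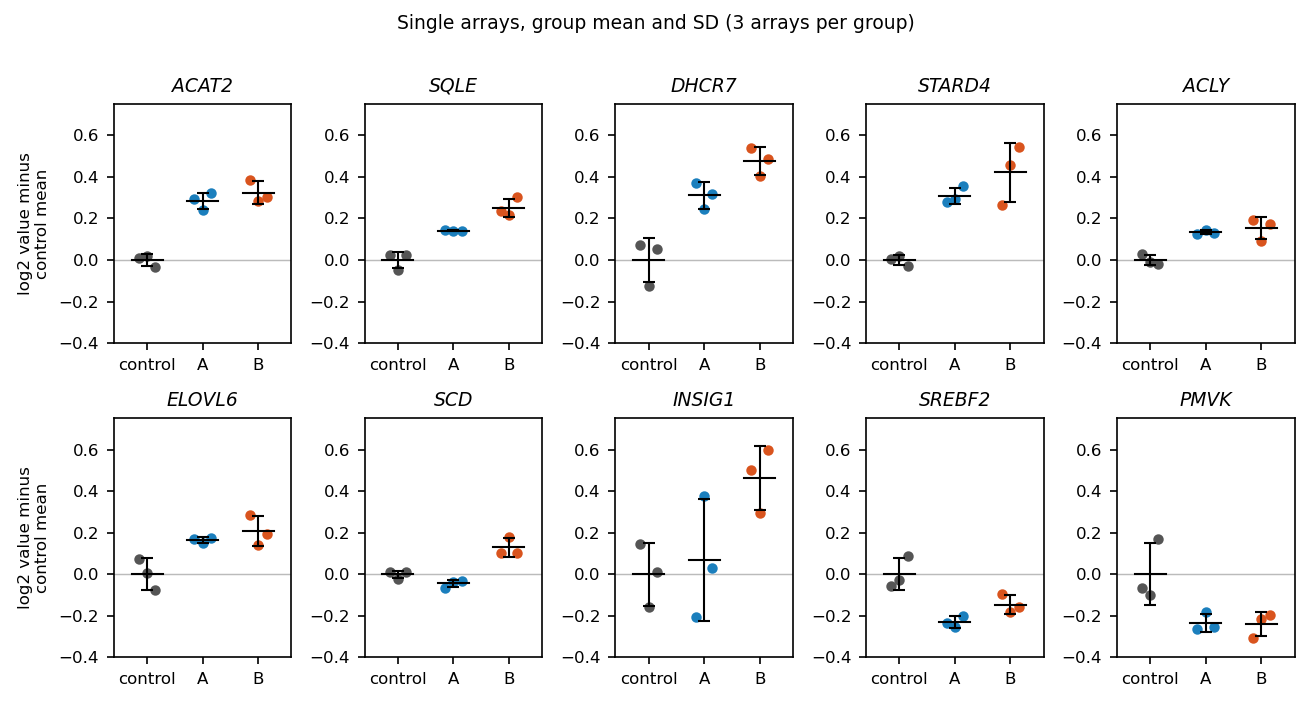
Log2 value minus the control mean (vertical axis) for 10 genes on single arrays of the control, sgRNA-A and sgRNA-B groups; points are arrays, long horizontal lines group means and bars SD of 3 arrays. ACAT2, SQLE, DHCR7, STARD4, ACLY and ELOVL6 are higher on all guide arrays, and SREBF2 and PMVK are lower on all of them. SCD lies below control with sgRNA-A and above it with sgRNA-B, and INSIG1 has the widest spread with sgRNA-A.

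In the fatty acid arm, 1 gene was called with a single guide, and a difference between the arms was not tested. With sgRNA-A, limma called 0 of 8 genes, against 2.18% of all genes. Before adjustment, 2 were higher there with p below 0.05, against 6.68% of all genes. With sgRNA-B, 1 rose and 7 did not pass, against 3.07% of all genes called and 1.56% called higher. Before adjustment, 4 were higher with sgRNA-B, against 7.42% of all genes. The median log2 fold changes were 0.031 and 0.10, against 0.0036 and -0.0039 for all genes. The gene that rose was ACLY, which encodes the ATP citrate lyase that supplies cytosolic acetyl-CoA to both arms. It measured 11.59, 11.55 and 11.54 in control, 11.69, 11.71 and 11.69 with sgRNA-A, and 11.76, 11.66 and 11.74 with sgRNA-B. All guide arrays lay above the controls, by 0.15 with sgRNA-B (SE 0.035, 1.11-fold; adjusted p = 0.0297, limma) and by 0.13 with sgRNA-A, which did not pass (adjusted p = 0.0716, limma). The sgRNA-B call was lost without control replicates 1, 2 or 3 (adjusted p = 0.0643, 0.0607 and 0.0923, limma) or sgRNA-B replicates 1 or 3 (0.148 and 0.112), which left 0 called genes in the arm.

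A further 3 genes of the arm lay close to the threshold with sgRNA-B. FADS2, the delta-6 desaturase gene, measured 10.67, 10.66 and 10.75 in control, 10.70, 10.82 and 10.84 with sgRNA-A and 10.95, 10.83 and 10.86 with sgRNA-B (log2 fold change with sgRNA-B 0.19, SE 0.048, adjusted p = 0.0512, limma). ELOVL6, which elongates saturated fatty acids, measured 9.42, 9.35 and 9.27 in control, 9.51, 9.49 and 9.52 with sgRNA-A, and 9.63, 9.49 and 9.54 with sgRNA-B (0.21, SE 0.054, adjusted p = 0.0569, limma). Neither guide group overlapped the controls for ELOVL6, and for FADS2 the sgRNA-B arrays alone did not. SCD, the stearoyl-CoA desaturase that makes monounsaturated fatty acids, measured 11.56, 11.53 and 11.56 in control, 11.49, 11.51 and 11.52 with sgRNA-A, and 11.65, 11.73 and 11.65 with sgRNA-B (0.13, SE 0.034, adjusted p = 0.0599, limma). Its sgRNA-A arrays all lay below the control arrays and its sgRNA-B arrays all above them. With sgRNA-A the SCD difference was -0.044 (SE 0.034; adjusted p = 0.650, limma). When the dimmest 30% of genes were left out before adjustment, ACLY, FADS2, ELOVL6 and SCD were all called with sgRNA-B, 4 of 8 genes, against 5.55% of all genes left in that fit.

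The remaining genes of the arm, grouped here by their values and not by function, stayed near their control level. ACACA, the acetyl-CoA carboxylase gene, measured 9.51, 9.41 and 9.42 in control and differed by -0.0033 with sgRNA-A and -0.06 with sgRNA-B. FASN, the fatty acid synthase gene, measured 9.62, 9.59 and 9.74 in control and differed by 0.05 and -0.0020. The delta-5 desaturase gene FADS1 differed by 0.01 and 0.07 and ACSS2, which makes acetyl-CoA from acetate, by -0.07 and -0.03. Groups overlapped for all of these, and adjusted p ranged from 0.475 to 0.992 in limma.

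**Figure D3:**
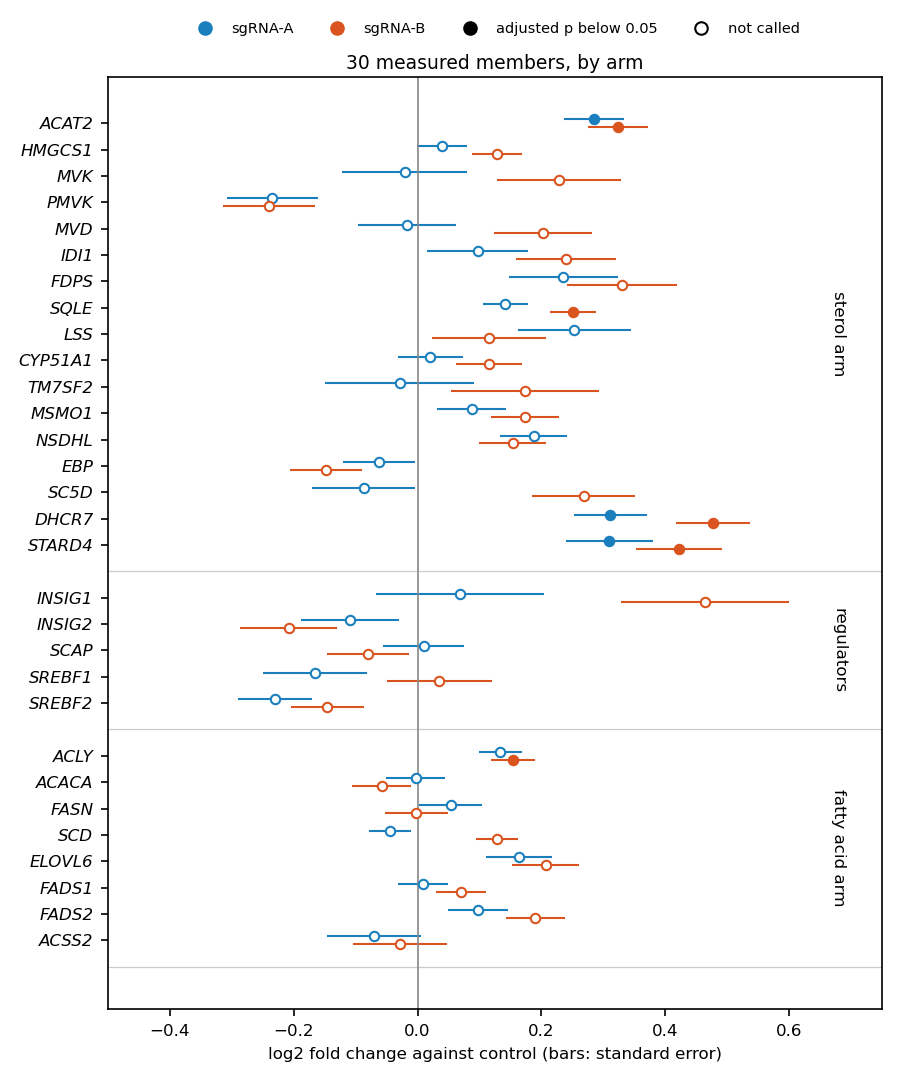
Log2 fold change against control (horizontal axis) of the 30 measured genes with sgRNA-A (blue) and sgRNA-B (orange); bars are standard errors of the fit and filled points have an adjusted p below 0.05 in limma. Filled points are found at ACAT2, DHCR7 and STARD4 for both guides and at SQLE and ACLY for sgRNA-B, while the core fatty acid genes ACACA and FASN lie close to 0.

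None of the 5 regulators passed the test in limma with either guide, where 2.18% and 3.07% of all genes did. Before adjustment, 1 had p below 0.05 with sgRNA-A, lower, and 3 with sgRNA-B, 1 higher and 2 lower. Over all genes, 6.68% were higher and 6.74% lower at that level with sgRNA-A, and 7.42% and 7.32% with sgRNA-B. SREBF2 measured 8.56, 8.59 and 8.71 in control, 8.39, 8.37 and 8.42 with sgRNA-A, and 8.53, 8.44 and 8.46 with sgRNA-B. Every guide array lay below every control array. The log2 fold change was -0.23 with sgRNA-A (SE 0.059; adjusted p = 0.0681, limma) and -0.15 with sgRNA-B (adjusted p = 0.254, limma). With the dimmest 30% of genes left out, SREBF2 was called lower with sgRNA-A (adjusted p = 0.0488, limma), where 3.96% of all genes left in were called.

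INSIG1, both a brake on SREBP activation and a target gene of it, measured 7.11, 6.81 and 6.98 in control, 6.76, 7.34 and 7.0 with sgRNA-A, and 7.47, 7.26 and 7.56 with sgRNA-B. Its sgRNA-B arrays lay above the controls, and its sgRNA-A arrays spanned them with an SD of 0.29, the largest of the 30 genes in any group. With sgRNA-B the difference was 0.46 (SE 0.136, 1.38-fold; adjusted p = 0.0927, limma); it passed without sgRNA-A replicate 2 (0.0423) and in a fit of the compared groups alone (0.0405). With sgRNA-A the difference was 0.07, and without sgRNA-A replicate 2 it was -0.087. INSIG2, the paralogue with the same role, measured 8.65, 8.48 and 8.67 in control, 8.48, 8.57 and 8.43 with sgRNA-A, and 8.41, 8.24 and 8.52 with sgRNA-B, with overlapping groups (-0.11 and -0.21, SE 0.079 each; adjusted p = 0.624 and 0.209, limma). SREBF1 measured 7.80, 7.65 and 7.74 in control, 7.41, 7.64 and 7.65 with sgRNA-A and 7.85, 7.66 and 7.79 with sgRNA-B (-0.17 and 0.04, SE 0.084 each; adjusted p = 0.429 and 0.909, limma). Its sgRNA-A arrays lay below the controls, the highest of them just so, and its sgRNA-B arrays overlapped them. SCAP, the escort, measured 8.71, 8.68 and 8.86 in control, 8.74, 8.73 and 8.80 with sgRNA-A, and 8.67, 8.76 and 8.57 with sgRNA-B, with overlapping groups (0.01 and -0.08, SE 0.066 each; adjusted p = 0.974 and 0.662, limma).

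Compared directly, 0 of the 30 genes differed between sgRNA-A and sgRNA-B in limma, where 0.104% of all genes did; before adjustment, 9 of the 30 had p below 0.05, all lower with sgRNA-A, against 5.24% of all genes lower at that level. In the sterol arm 13 of 17 genes were lower with sgRNA-A than with sgRNA-B (median difference -0.095, against 0.0045 for all genes, of which 52.1% were higher with sgRNA-A), and in 7 of 17 the groups did not overlap, all lower with sgRNA-A, against 7.34% of all genes. The smallest adjusted p values were those of SCD (sgRNA-A minus sgRNA-B -0.17, SE 0.034; adjusted p = 0.0921, limma) and SC5D (-0.36, SE 0.083; adjusted p = 0.159). SQLE differed by -0.11 and DHCR7 by -0.17, without overlap, whereas ACAT2 differed by -0.04 (SE 0.048) with overlapping groups. The calls made with sgRNA-B and not with sgRNA-A, those of SQLE and ACLY, are therefore not shown to differ between the guides.

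Averaged over both guides, 6 of the 30 genes rose and 0 fell, where 3.57% of all genes were called and 1.77% were called higher. In the sterol arm these were ACAT2 (0.30), SQLE (0.20), DHCR7 (0.39) and STARD4 (0.37), 4 of 17, and the calls held whichever array was left out. In the fatty acid arm they were ACLY (0.14; adjusted p = 0.0172, limma) and ELOVL6 (0.19; adjusted p = 0.0448, limma). ACLY was lost without any 1 of the control replicates, with adjusted p up to 0.0758, and ELOVL6 without any array but sgRNA-B replicate 2, with adjusted p up to 0.198 (limma). Without control replicate 2, 7 sterol arm genes were called, 5 higher and 2 lower.

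Genes that respond to sterol through another route were set beside these. The pathway genes and all related lists were chosen with earlier results of these data known, and no list was tested as a set. Their shares of called genes, given beside those of all genes, are descriptions only. LXR nuclear receptors are activated by oxysterols and switch on genes for cholesterol export and membrane remodelling. Of 7 measured genes in this list, 3 fell, 0 rose and 4 did not pass with sgRNA-A, where 1.22% of all genes fell, and 2 fell, 0 rose and 5 did not pass with sgRNA-B, where 1.51% of all genes fell. The list's median log2 fold change was -0.19 and -0.13. ABCA1, which exports cholesterol from the cell, measured 8.13, 7.98 and 8.03 in control, 7.56, 7.69 and 7.54 with sgRNA-A, and 7.49, 7.46 and 7.59 with sgRNA-B. All guide arrays lay below the controls, by -0.45 (SE 0.074; adjusted p = 0.00676, limma) and -0.53 (adjusted p = 0.00174).

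PLTP, a phospholipid transfer protein, measured 9.27, 9.21 and 9.30 in control, 8.83, 8.71 and 8.80 with sgRNA-A, and 8.97, 8.93 and 8.95 with sgRNA-B. It fell with both guides, with log2 fold changes of -0.48 (adjusted p = 0.000484, limma) and -0.31 (adjusted p = 0.00606, limma). The calls of ABCA1 and PLTP held whichever array was left out. LPCAT3, which places polyunsaturated fatty acids into phospholipids, fell with sgRNA-A (-0.19, adjusted p = 0.0399, limma), a call lost on leaving out any array but control replicate 2, with adjusted p up to 0.123, and with the replicate number as a block (0.0521). MYLIP, a ubiquitin ligase, differed by -0.24 and -0.08, the receptor gene NR1H3 by -0.13 and -0.34 and SMPDL3A by -0.11 and 0.16, without passing; ABCG1 was at or below the silent level.

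**Figure D4:**
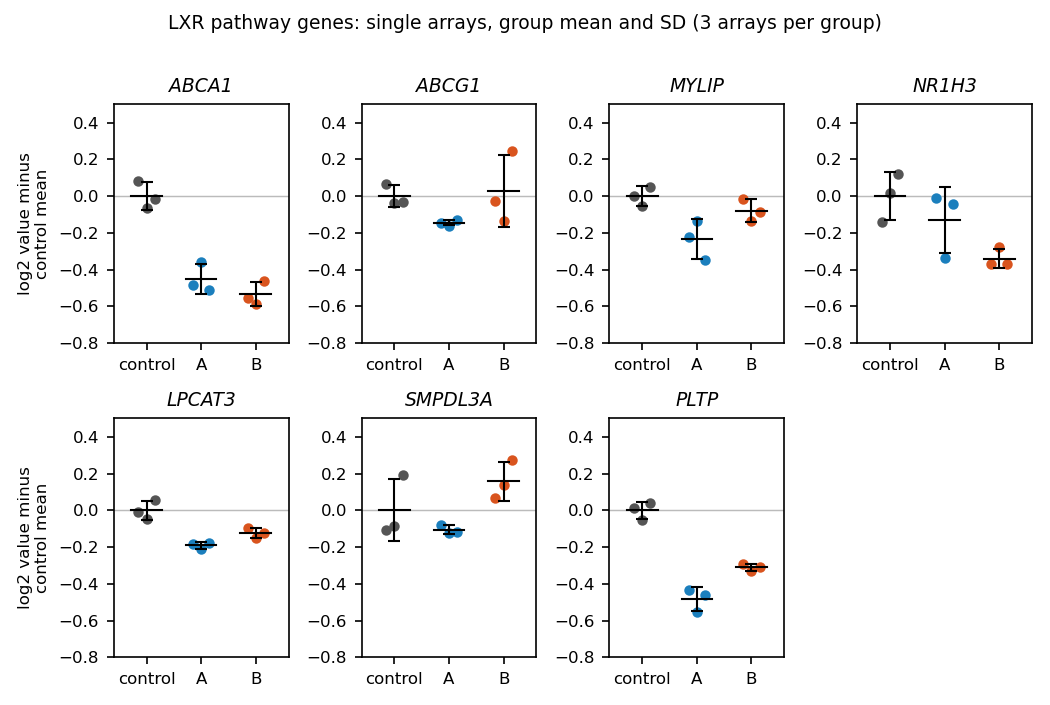
Log2 value minus the control mean (vertical axis) for the 7 measured genes of the LXR list on single arrays of the control, sgRNA-A and sgRNA-B groups; points are arrays, long lines group means and bars SD of 3 arrays. ABCA1, PLTP and LPCAT3 lie below control on all guide arrays, and SMPDL3A lies on either side.

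Other lipid gene lists held at most 1 call each with either guide, where 2.18% and 3.07% of all genes were called. In limma, 0 of 7 genes of SREBP processing and sterol-regulated turnover, which include the proteases MBTPS1 and MBTPS2, passed with sgRNA-A or with sgRNA-B; 2 in each comparison were lower with p below 0.05 before adjustment. With sgRNA-A, 0 genes of sterol transport, the isoprenoid branch, other fatty acid and glycerolipid synthesis or fatty acid oxidation passed in limma (2, 1, 3 and 2 had p below 0.05 before adjustment). With sgRNA-B, 2, 0, 4 and 1 genes of these lists were higher with p below 0.05 before adjustment, and 0, 1, 2 and 1 were lower. Over all genes, 6.68% were higher and 6.74% lower at that level with sgRNA-A, and 7.42% and 7.32% with sgRNA-B. With sgRNA-B, 1 of 11 sterol transport genes rose, the lysosomal sterol carrier NPC2 (0.26). SLC25A1, the mitochondrial citrate carrier that feeds ACLY, rose (0.19), 1 of 20 in its list, and the geranylgeranyl transferase subunit gene RABGGTB fell (-0.23), 1 of 10. CPT1A, which admits fatty acids to mitochondria for oxidation, also fell (-0.26), 1 of 9 oxidation genes. Each of these 4 calls was lost when some single array was left out: NPC2 without control replicates 1 or 3 or sgRNA-B replicates 1 or 2 (adjusted p up to 0.141, limma), SLC25A1 without control replicate 1 or any sgRNA-B replicate (up to 0.113), RABGGTB without control replicate 3 or sgRNA-B replicate 2 (up to 0.0608) and CPT1A without control replicates 1 or 3 or any sgRNA-B replicate (up to 0.101).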

How the data were processed

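Total RNA of 9 H2009 cultures was hybridised to Affymetrix arrays. The authors deposited log2 values, 1 per probe set and array, made with RMA per the submitters' processing notes; its version, background settings and probe definition were not given in the sources used here. This step equalises the arrays (each median 4.91), so a shift of all genes on an array is removed. Of 24733 probe sets, 23934 had 1 symbol in the supplied annotation, 0 had several and 799 had none and were left out; the brightest set was kept for 3 repeated symbols, leaving 23931 genes, none filtered. Symbols were updated by gene number through RefSeq.

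One limma 3.58.1 model (R 4.3.3; lmFit, eBayes with trend) with a mean per group was fitted to all genes and arrays, with Benjamini-Hochberg adjustment over 23931 genes and a threshold of 0.05; the steps were tested on simulated data. SE is that of the fit. The number of arrays limits the precision. Members and lists were chosen with earlier results of these data known. Per-array values were given for genes called in any comparison, the most nearly called of each arm and the regulators; from related lists, called genes were named, up to 3 per list. Per-array values of FDPS, PMVK, ACACA and FASN, and the uncalled LXR genes, go beyond that rule and were chosen after their values were seen. Alternatives left out each array, used the replicate number as a block, other variance settings, array weights, the compared groups alone, filters on dim genes, repeated normalization, centring and averaged probe sets.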

Additional observations from a re-analysis of the deposited data

Results flagged for a closer look

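SCD was the 1 measured gene of the pathway whose guide groups lay on opposite sides of the control arrays, all sgRNA-A arrays below and all sgRNA-B arrays above. Against control, SCD differed by -0.044 with sgRNA-A (SE 0.034; adjusted p = 0.650, limma) and by 0.13 with sgRNA-B (adjusted p = 0.0599, limma). Neither passed. The share of all genes with guide groups on opposite sides was not counted. The difference of sgRNA-A minus sgRNA-B was -0.17 log2 units and did not pass limma's test after adjustment over all genes (adjusted p = 0.0921).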

How the results depend on the processing

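Repeated quantile normalization, median centring and averaged probe sets kept each arm's count and median. These settings could change little, because the deposited arrays already had equal medians of 4.91 and only 3 symbols were repeated. The replicate number as a block gave the same counts as the fit without it: sterol arm 3, 4, 0 and 4 (sgRNA-A, sgRNA-B, sgRNA-A against sgRNA-B, mean of both), fatty acid arm 0, 1, 0 and 2, regulators 0 in each. Deviations from the group mean correlated at -0.15 to 0.14 between same-numbered arrays, and at -0.13 to 0.12 between differently numbered ones. For replicates 1, 2 and 3 the values were 0.093, 0.14 and 0.049 between sgRNA-B and control. Between sgRNA-A and control they were 0.087, -0.058 and 0.094, and between the guides 0.0046, -0.15 and -0.0059. The numbers were not taken to pair the arrays, and whether they mark a shared batch was not tested. Over all genes the block gave 465 and 684 calls against 522 and 735.

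Leaving out 1 array gave 1 to 3 called sterol genes with sgRNA-A, 4 to 7 for the mean of both guides, 0 to 2 called fatty acid genes with sgRNA-B and 0 to 2 for the mean, and 0 to 1 regulators with sgRNA-B; the sterol median with sgRNA-A ranged from 0.033 to 0.119. Single-gene values that changed sign, none of them called, are given with their range over left-out arrays: INSIG1 with sgRNA-A (-0.087 to 0.20; -0.011 without control replicate 2), SCAP with sgRNA-A (-0.026 to 0.065; -0.011 and -0.012 without control replicate 1 or sgRNA-A replicate 3), NPC2 with sgRNA-A (-0.029 to 0.074; -0.016 without sgRNA-A replicate 3), SREBF1 with sgRNA-B (-0.00537 to 0.088; -0.00439 without sgRNA-B replicate 1) and SCAP in the mean (-0.070 to 0.021).

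Without the variance trend, 1 sterol gene was called with sgRNA-A, 0 fatty acid genes with sgRNA-B and 0 in the mean. Robust variances gave 2 fatty acid genes with sgRNA-B; array weights gave 2 there and 1 in the mean. In the compared groups alone the counts were 0 fatty acid genes and 1 regulator with sgRNA-B. Filters test fewer genes: without the dimmest 30%, 1 regulator was called with sgRNA-A, 1 in the mean, and 4 fatty acid genes with sgRNA-B. The 50% filter, and genes above the silent level (an alternative chosen after seeing the data), gave these and also 1 fatty acid gene with sgRNA-A and 7 sterol genes in the mean. The array number and the small changes limit what could be called.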
